A study of Mus musculus with 32 samples.

Results

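Fetal liver progenitors with Vav1-Cre and both alleles of U2af1 floxed were compared with progenitors of floxed embryos without Cre. Loss of both alleles in the sorted cells was not checked, so the contrast describes how RNA levels differ between the genotypes. The comparison takes 6 of the 32 libraries of the series, chosen by the genotype and batch in the labels. The homozygous deletion (n = 3, replicates 2, 3 and 4) had the genotype Vav1-Cre/U2af1(flox/flox), and the flox control (n = 3, replicates 3, 4 and 5) had U2af1(flox/flox) and no Cre. All 6 were labelled as untreated, as sequencing batch A and as lineage-negative, cKit-positive, Sca1-negative progenitors sorted from fetal liver at stage E14.5. Both groups carry the floxed alleles and differ in Vav1-Cre, which is driven by a gene active across blood cells, so an effect of the Cre itself and of the deletion cannot be told apart in this contrast. The heterozygous deletion, Vav1-Cre/U2af1(wt/flox) (n = 3, replicates 3, 4 and 5, same batch, stage and gate), shares the statistical fit and is given beside it, as it also carries the Cre. A single batch A library with Vav1-Cre alone is quoted where it bears on a value. Values per library are given in the order of the replicate numbers. The labels do not say that replicates were separate embryos, so p-values measure the spread between these libraries, which may be technical. Expression of U2af1 was not analysed here and gives no check of the genotype labels.

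U2AF1 is the small subunit of the U2 auxiliary factor. It reads the AG dinucleotide at the end of an intron while its partner U2AF2 binds the polypyrimidine tract before it, and SF1 marks the branch point, so that the U2 snRNP can assemble on the intron. In the fetal liver, cells of this gate are committed progenitors that give rise to red cells, platelets, granulocytes and monocytes, and they lie among hepatocytes, resident macrophages and endothelium.

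Total counts ran from 42810902 to 66089097 in the flox control and from 34506688 to 64515259 in the homozygous deletion, with homozygous replicate 4 the shallowest. Hepatocyte transcripts, which do not belong to sorted blood progenitors, differed between libraries. Summed over 21 hepatocyte genes, the level reached 128, 813 and 509 CPM (counts scaled to a common library size with TMM factors) in the flox control. It was 46.1, 28.2 and 18.6 CPM in the homozygous deletion and 160, 65.4 and 70.5 CPM in the heterozygous deletion. The Vav1-Cre library, scaled without a TMM factor, had 195 CPM. Flox control replicates 4 and 5 therefore held far more hepatocyte RNA than flox control replicate 3, and the homozygous and flox control libraries do not overlap. Averaged as log2 CPM, the same genes give a hepatocyte score of 1.71, 4.44 and 3.76 in the flox control and 0.08, -0.88 and -1.76 in the homozygous deletion. Flox control replicate 3 also stood apart in blood genes, with 22790 CPM over 20 neutrophil granule genes against 15670 and 15580 CPM in replicates 4 and 5. Most lists below are therefore also given with the score as a covariate, and many of them against the heterozygous deletion or against flox control replicate 3 alone. In bulk samples such as these, fewer cells of a type and less RNA per cell cannot be told apart.

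Of 12678 genes tested, 5194 (41%) were called, that is, had a Benjamini-Hochberg adjusted p under 0.05 by the quasi-likelihood test of edgeR. Of the tested genes, 2350 (18.5%) were called higher in the homozygous deletion and 2844 (22.4%) lower. For 6371 genes (50.3%) the CPM of both groups did not overlap. Against the heterozygous deletion, 5358 genes (42.3%) were called, 2513 (19.8%) higher and 2845 (22.4%) lower. That comparison shares the homozygous libraries, so the same gene called in both is no independent finding. With the hepatocyte score as a covariate, 1406 genes (11.1%) were called, 566 (4.46%) higher and 840 (6.63%) lower, and with flox control replicate 3 as the only control 2718 were. Against the heterozygous deletion, whose score lies nearer, the covariate left 4134 genes called. The score and the genotype move together, and the scores of the homozygous and flox control libraries do not overlap. The covariate can therefore take away signal of the genotype or enlarge it. With it the median log2 fold change of B-lineage genes went from -2.78 to -3.90, and that of integrated stress response genes from 0.23 to 0.52. Calls made with the covariate are thus not a stricter test. Counts of list members below are to be read against these shares.

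**Figure D1:**
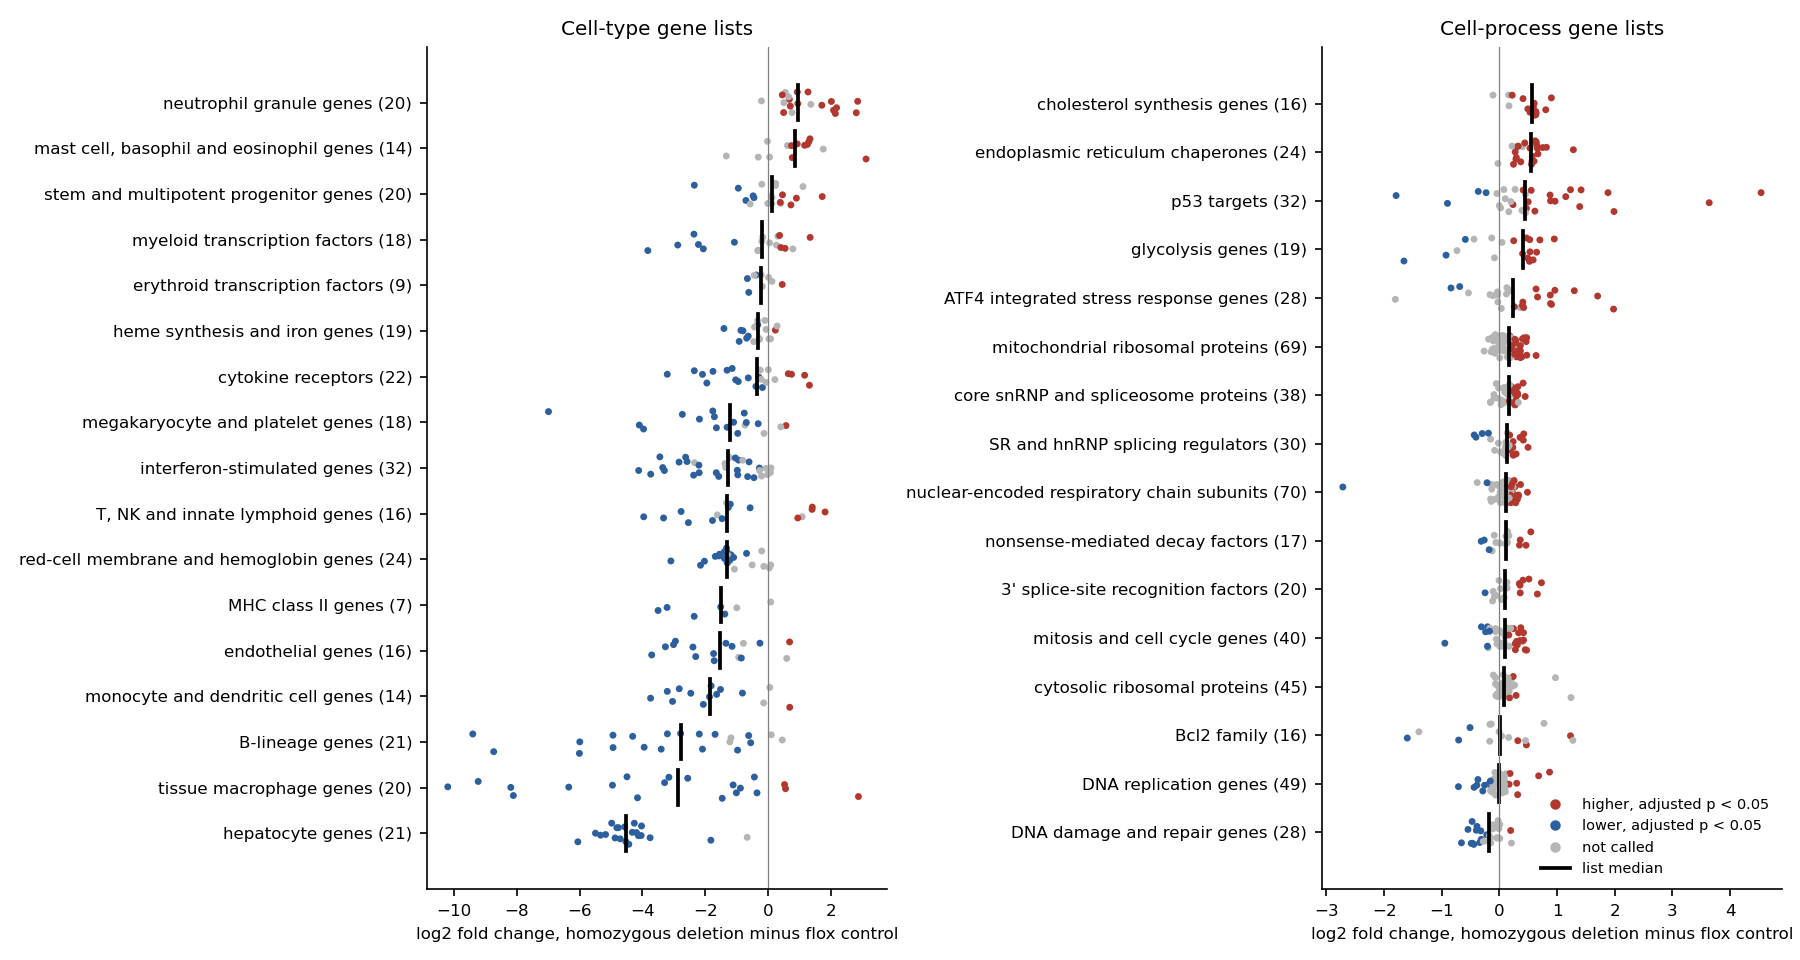
Log2 fold change of each tested list member (points, homozygous deletion minus flox control), for cell-type lists on the left and cell-process lists on the right, with the number of tested members in parentheses. Points are coloured by direction where the edgeR adjusted p is under 0.05, and the black bar is the list median. Hepatocyte genes have the lowest median, -4.53, and neutrophil granule genes the highest, 0.94.

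Genes of monocytes, dendritic cells and their antigen presentation were lower in the homozygous deletion. Of 14 tested monocyte and dendritic cell genes, 11 fell and 1 rose, with a median log2 fold change of -1.84 against -0.018 over all genes. Csf1r, the receptor for macrophage colony-stimulating factor, had 273, 237 and 231 CPM in the flox control and 24.1, 29.9 and 26.1 CPM in the homozygous deletion. It had 187, 203 and 196 CPM in the heterozygous deletion, so the 3 homozygous libraries lay far below all other libraries. Csf1r fell by 3.21 ± 0.095 (SE) on the log2 scale (edgeR adjusted p 4.57e-08). Irf8 (ENSMUSG00000041515, chromosome 8, 120736358 to 120756694, plus strand, GRCm38), a transcription factor that commits progenitors to monocytes and dendritic cells, had 226, 162 and 158 CPM in the flox control. In the homozygous deletion Irf8 had 44.3, 48.5 and 37.7 CPM, a log2 fold change of -2.06 ± 0.14 (edgeR adjusted p 4.59e-06) with no overlap. Cx3cr1, the fractalkine receptor of monocytes, had 42.1, 43.5 and 36.9 CPM against 5.97, 5.31 and 3.41 CPM. Ly86, a partner of a Toll-like receptor relative, fell from 29.2, 22.2 and 21.6 CPM to 2.01, 2.01 and 1.34 CPM. Tlr4, the lipopolysaccharide receptor, was the 1 member that rose, by 0.69 ± 0.11 on the log2 scale (edgeR adjusted p 0.000801), and Ly6c2 was at 0.05 ± 0.27 (edgeR adjusted p 0.895). Of 7 MHC class II genes, 5 fell, among them H2-Aa, with 3.02, 0.80 and 1.02 CPM against 0.26, 0.13 and 0 CPM, and their transactivator Ciita at -2.35 ± 0.62 (edgeR adjusted p 0.0114). The log2 fold change of H2-Aa was -3.50, and it was -2.65 without flox control replicate 3 and -4.30 without homozygous replicate 2. With the hepatocyte score as a covariate, 10 of the 14 monocyte and dendritic cell genes and 3 of the 7 MHC class II genes were called lower, and with flox control replicate 3 as the only control 11 and 6 were.

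Most resident macrophage genes fell as well. Of 20 tested genes, 17 fell and 3 rose, with a median of -2.86, and the groups did not overlap for any of the 20. C1qa, a chain of the first complement component, had 5.29, 6.45 and 7.0 CPM in the flox control and 0.08, 0.41 and 0.33 CPM in the homozygous deletion. Its log2 fold change was -4.49 ± 0.49 (edgeR adjusted p 8.16e-05). Marco, a scavenger receptor of macrophages, had 5.80, 11.7 and 11.6 CPM in the flox control and 2 counts or fewer in each homozygous library, which puts it at least 145-fold lower than the flox mean when the floor of 3 counts per library is used. The heterozygous libraries differed among themselves, with C1qa at 4.11, 1.86 and 1.92 CPM and Marco at 8.36, 2.42 and 2.68 CPM. In the heterozygous deletion both genes were therefore high in replicate 3, which also held the most hepatocyte RNA of that group. Of the 20, 15 were called lower against the heterozygous deletion, and with the score as a covariate 10 were. The 3 that rose were Vcam1, an adhesion molecule, Slc40a1, the iron exporter ferroportin, and Gpnmb. Gpnmb, a glycoprotein of lysosome-rich cells, had 0.51, 0.62 and 0.58 CPM against 1.30, 4.16 and 7.23 CPM, a log2 fold change of 2.88 ± 0.51 (edgeR adjusted p 0.00138) that was 2.26 without homozygous replicate 4. Vcam1 lost its call without flox control replicate 4 or homozygous replicate 3 (log2 fold change 0.44 and 0.43), and Slc40a1 without homozygous replicate 3 or 4 (0.46 and 0.50). Without homozygous replicate 3 the list had 1 rise and 16 falls.

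B-lineage genes were lower in the homozygous deletion. Of 21 tested B-lineage genes, 17 fell and none rose, with a median of -2.78. Pax5 (ENSMUSG00000014030, chromosome 4, 44524757 to 44710487, minus strand), the factor that commits cells to the B lineage, had 32.1, 10.9 and 13.3 CPM in the flox control and 23.4, 22.1 and 16.9 CPM in the heterozygous deletion. All 3 homozygous libraries were at or under 3 counts, so Pax5 was at least 281-fold lower than in the flox control, and it overlaps other annotated genes on both strands. Cd79a, a chain of the B-cell receptor, had 16.8, 5.33 and 6.55 CPM against 0.63, 0.20 and 0.69 CPM, a log2 fold change of -4.31 ± 0.57 (edgeR adjusted p 0.000241). Il7r, the interleukin 7 receptor of early lymphoid cells, had 14.6, 6.56 and 7.11 CPM against 2.05, 1.85 and 2.84 CPM, a log2 fold change of -2.09 ± 0.30 (edgeR adjusted p 0.000382). In each of these genes flox control replicate 3 was the highest flox library and the groups did not overlap. Without that library Cd79a was at -3.62. The count of 17 was the same with the score as a covariate and against the heterozygous deletion, and 18 with flox control replicate 3 as the only control. Without flox control replicate 3, 15 fell and 2 rose.

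T, natural killer and innate lymphoid genes were split. Of 16 tested, 9 fell and 4 rose. Tcf7, a factor of early T and innate lymphoid cells, fell from 16.7, 11.5 and 10.7 CPM to 5.32, 5.06 and 6.6 CPM (log2 fold change -1.20 ± 0.17, edgeR adjusted p 0.000418). Id3, an inhibitor of E proteins, fell from 19.6, 12.6 and 12.5 CPM to 1.67, 1.98 and 0.66 CPM. Bcl11b, a T-lineage commitment factor, was at or under 3 counts in each homozygous library and at least 13.7-fold lower. Its flox control values were 1.51, 0.85 and 0.39 CPM, so this gene was low there too. Gata3 fell by 1.46 ± 0.46 (edgeR adjusted p 0.0253), a call lost without flox control replicate 3 (-1.01) or homozygous replicate 3 or 4 (-1.33 and -1.09), and without homozygous replicate 2 it was at -2.13. The genes that rose included Nkg7, a cytotoxic granule protein, with 80.7, 52.2 and 52.3 CPM against 135, 180 and 177 CPM. Nkg7 rose by 1.41 ± 0.17 on the log2 scale (edgeR adjusted p 0.00017), with no overlap. None of the 4 rises was called with the score as a covariate, where Nkg7 was at 0.62 (edgeR adjusted p 0.11).

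**Figure D2:**
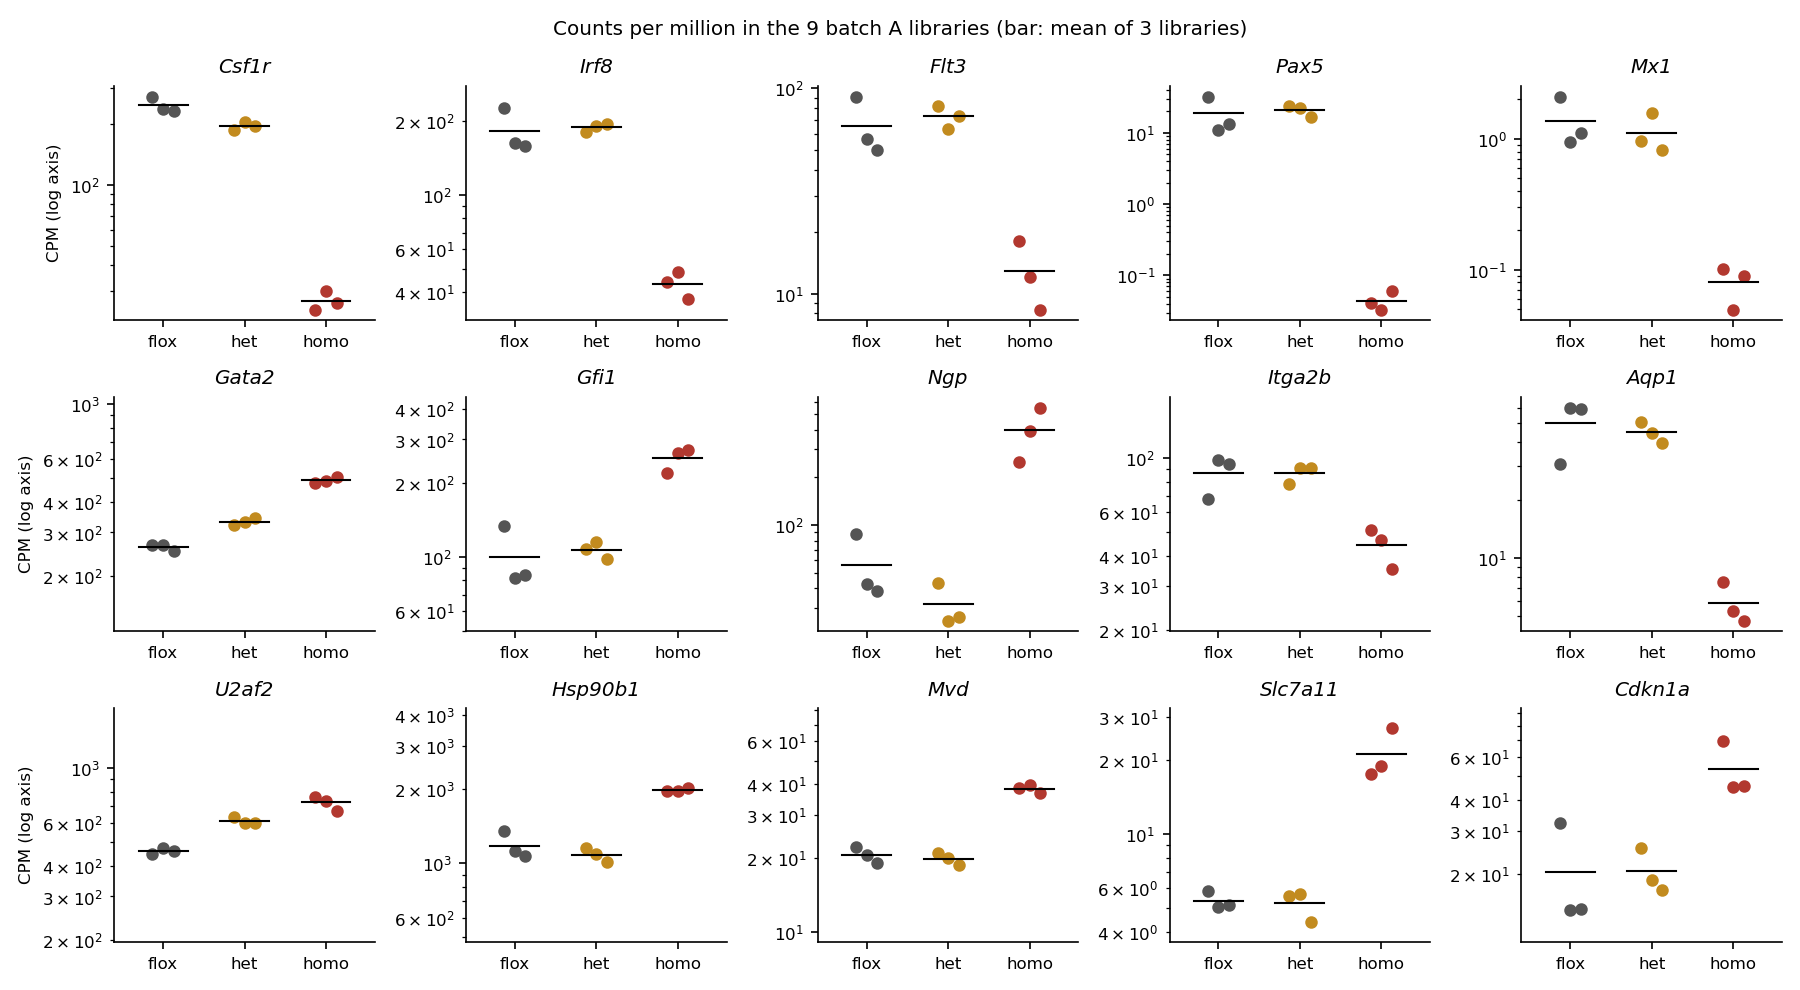
CPM of 15 genes in the 3 flox control, 3 heterozygous deletion and 3 homozygous deletion libraries of batch A (points, in replicate order; bar, mean; log axis). Csf1r, Irf8, Flt3, Pax5, Mx1, Itga2b and Aqp1 lie lower in the homozygous libraries than in the other 6, and the other 8 genes lie higher.

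Interferon-stimulated genes, many of which act against viruses, were lower. Of 32 tested, 21 fell and none rose, with a median of -1.29. Mx1 (ENSMUSG00000000386, chromosome 16, 97447035 to 97462907, minus strand), an antiviral GTPase, had 2.10, 0.94 and 1.10 CPM in the flox control, 0.97, 1.57 and 0.82 CPM in the heterozygous deletion and 0.10, 0.05 and 0.09 CPM in the homozygous deletion. Its log2 fold change was -4.12 ± 0.51 (edgeR adjusted p 0.000169). Irf7, the factor that amplifies interferon responses, had 4.76, 2.16 and 3.09 CPM against 1.0, 0.84 and 1.40 CPM (log2 fold change -1.65 ± 0.31, edgeR adjusted p 0.00201). Mx1 and Irf7 were at low levels in all libraries, highest in flox control replicate 3, and did not overlap between groups. Isg15 (-2.34 ± 0.94, edgeR adjusted p 0.0683) and Ifit3 (-1.23 ± 0.61, edgeR adjusted p 0.131) did not pass, and Isg15 passed without homozygous replicate 3. The receptor chain Ifnar2 fell by 0.63. Of the 32, 17 were called lower with the score as a covariate, and against the heterozygous deletion 21.

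The promoters of this list are shown for the interferon-stimulated response element, GAAA, any 2 bases and GAAA on either strand, in the 250 bases before the start of each gene in the RefSeq table of GRCm38.p6. Of the 23 tested members with a promoter in that table, 10 (43.48%) held a match, against 3.46% of all 27025 genes with one. The list was chosen as interferon-stimulated genes, so this excess describes the list and is no result about the deletion. Of the 14 called members with a promoter, 5 did: Gbp2, Gbp3, Trim30a, Irgm1 and Bst2. Ifit1, Ifit3, Isg15, Rsad2 and Stat2 held a match and were not called, so a match was not particular to the members that fell. Of the members with a match, the median log2 fold change was -1.29, and -0.94 without. A match is a run of letters and not evidence of binding. The strongest and the weakest fall among the 5 are shown, with matches in capitals, 5′ to 3′ on the strand of the gene. Gbp2 held 1 match, and Bst2 held 2 that overlap. The window of Gbp2 is chr3:142620413-142620662 on the plus strand, and that of Bst2 is chr8:71537473-71537722 on the minus strand.
Gbp2: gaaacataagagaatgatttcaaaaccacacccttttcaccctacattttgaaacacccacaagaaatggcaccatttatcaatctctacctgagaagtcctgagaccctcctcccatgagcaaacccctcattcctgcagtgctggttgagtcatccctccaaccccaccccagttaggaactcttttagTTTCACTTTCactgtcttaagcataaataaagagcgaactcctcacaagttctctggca
Bst2: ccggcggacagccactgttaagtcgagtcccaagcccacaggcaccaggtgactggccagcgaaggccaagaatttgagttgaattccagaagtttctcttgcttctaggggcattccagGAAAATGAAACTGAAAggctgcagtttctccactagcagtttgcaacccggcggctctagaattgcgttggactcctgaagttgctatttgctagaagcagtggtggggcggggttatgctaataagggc
Gbp2, a guanylate-binding GTPase, had 2.69, 1.95 and 2.04 CPM in the flox control and 0.30, 0.56 and 0.21 CPM in the homozygous deletion, a log2 fold change of -2.58 ± 0.34 (edgeR adjusted p 0.000242). Bst2, a membrane protein that tethers budding virions, had 34.1, 27.2 and 28.6 CPM against 22.8, 22.9 and 20.2 CPM, a log2 fold change of -0.45 ± 0.096 (edgeR adjusted p 0.00394). Both genes were lower in each homozygous library than in each flox control library.

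Neutrophil granule genes were higher in the homozygous deletion. Of 20 tested, 14 rose and none fell, with a median of 0.94. Their summed level, mostly Mpo, overlapped between groups. It was 22790, 15670 and 15580 CPM in the flox control and 17160, 19840 and 20670 CPM in the homozygous deletion. Ngp (ENSMUSG00000032484, chromosome 9, 110419747 to 110423012, plus strand), a protein of secondary granules, had 88.0, 42.9 and 38.6 CPM in the flox control and 250, 391 and 549 CPM in the homozygous deletion. Lcn2, the iron-binding lipocalin of the same granules, had 52.9, 24.3 and 24.1 CPM against 104, 163 and 194 CPM. Their log2 fold changes were 2.81 ± 0.37 and 2.18 ± 0.34 (edgeR adjusted p 0.000245 and 0.000693). Ly6g, a surface protein of mature neutrophils that a lineage sort would remove, had 0.05, 0.07 and 0.19 CPM against 0.61, 0.99 and 0.69 CPM, and its log2 fold change moved from 2.85 to 3.73 without flox control replicate 5. The primary granule gene Mpo, myeloperoxidase, had 18250, 12890 and 12840 CPM against 11840, 13020 and 13160 CPM, with overlapping groups and a log2 fold change of -0.21 ± 0.13 (edgeR adjusted p 0.213). Elane, neutrophil elastase, had 1402, 807 and 792 CPM against 1400, 1710 and 1796 CPM, and its call (0.71 ± 0.21, edgeR adjusted p 0.0191) was lost without flox control replicate 4 or 5 (0.57 and 0.56) or homozygous replicate 3 or 4 (0.69 and 0.64). Of the 20, 18 rose against the heterozygous deletion and with flox control replicate 3 as the only control 9 did. With the score as a covariate none was called higher and 1 was called lower, and the list median was 0.34. The part of hepatocyte RNA or of flox control replicate 3 in these rises was not tested beyond these values.

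Mast cell, basophil and eosinophil genes also moved upward. Of 14 tested, 8 rose and none fell. Mcpt8, a protease of basophils, had 11.7, 2.80 and 3.53 CPM in the flox control and 26.3, 65.7 and 66.8 CPM in the homozygous deletion, a log2 fold change of 3.12 ± 0.54 (edgeR adjusted p 0.00118) that was 4.07 without flox control replicate 3. Il1rl1, the receptor for interleukin 33, had 32.3, 33.8 and 30.1 CPM against 55.1, 76.7 and 83.9 CPM, a log2 fold change of 1.16 ± 0.13 (edgeR adjusted p 0.000115). Prg2, the major basic protein of eosinophils, had 1000, 320 and 349 CPM against 1222, 1692 and 1295 CPM. Its log2 fold change was 1.33 ± 0.37 (edgeR adjusted p 0.0145), 2.08 without flox control replicate 3, and its call was lost without flox control replicate 5 (1.09) or homozygous replicate 3 (1.19). Cpa3, the mast cell carboxypeptidase, was at -0.31 ± 0.13 (edgeR adjusted p 0.0687), and it was called lower without flox control replicate 5 (-0.41). Of the 14 genes, 4 were called higher and 3 lower with flox control replicate 3 as the only control, and 0 higher and 2 lower with the score as a covariate, where the list median was -0.057 in place of 0.849.

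Among myeloid transcription factors Gfi1, Cebpa, Spi1 and Tfec rose, and Irf8, Irf4, Irf5, Batf3, Klf4 and Zeb2 fell. Gfi1 (ENSMUSG00000029275, chromosome 5, 107716657 to 107726036, minus strand), a repressor needed for neutrophils, had 133, 81.5 and 84.2 CPM in the flox control and 220, 265 and 272 CPM in the homozygous deletion (log2 fold change 1.34 ± 0.17, edgeR adjusted p 0.000195). Cebpa, a factor of the granulocyte and monocyte branch, had 230, 180 and 173 CPM against 247, 329 and 273 CPM (0.54 ± 0.12, edgeR adjusted p 0.00432). Irf4, a factor of dendritic and B cells, had 4.93, 2.53 and 2.30 CPM against 0.93, 0.33 and 0 CPM, and Batf3, a factor of cross-presenting dendritic cells, had 1.15, 0.57 and 0.42 CPM against 0.12, 0.016 and 0 CPM. For all 4 the groups did not overlap. Irf4 was at -2.88, and at -4.02 without homozygous replicate 2, and Batf3 moved from -3.83 to -5.83 without it. Spi1, the PU.1 factor of all myeloid cells, rose by 0.37 ± 0.11 (edgeR adjusted p 0.0213), a call lost without flox control replicate 4 or 5 or homozygous replicate 4 (0.28 to 0.33). Among all 18 tested members of the list 4 rose and 6 fell, while 7 rose without flox control replicate 3 and 2 rose without replicate 5. With the score as a covariate none rose and 5 fell.

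Stem and multipotent progenitor genes moved both ways, with 5 of 20 higher and 5 lower. Kit, the surface receptor used in the sort, had 463, 548 and 550 CPM in the flox control and 303, 276 and 229 CPM in the homozygous deletion, a fall of 0.95 ± 0.10 on the log2 scale (edgeR adjusted p 8.11e-05). Flt3, a receptor of lymphoid-primed progenitors, fell from 90.9, 56.4 and 49.7 CPM to 18, 12.1 and 8.33 CPM (log2 fold change -2.35 ± 0.28, edgeR adjusted p 0.000133). Cd34, a progenitor surface protein, fell from 472, 424 and 403 CPM to 329, 264 and 203 CPM (-0.71 ± 0.14, edgeR adjusted p 0.0024). Gata2 (ENSMUSG00000015053, chromosome 6, 88193891 to 88207032, plus strand), a factor of stem cells, mast cells and early progenitors, rose from 267, 267 and 251 CPM to 476, 487 and 505 CPM. Its log2 fold change was 0.90 ± 0.053 (edgeR adjusted p 2.09e-06), and the heterozygous libraries lay between the groups at 323, 330 and 345 CPM. Mecom (2.34, 1.19 and 1.04 CPM against 8.65, 3.07 and 3.47 CPM) and Hlf (32.7, 24.5 and 22.9 CPM against 62.8, 32.9 and 37.2 CPM), both stem cell factors, were highest in homozygous replicate 2. Without that library neither was called, at 1.10 in place of 1.72 and 0.40 in place of 0.73, and both also lost their call without flox control replicate 4 or 5. The count of rises was 8 without flox control replicate 3, and 3 without flox control replicate 4 or 5 or homozygous replicate 2. The count of falls was 3 without flox control replicate 4 or homozygous replicate 3. The score as a covariate left 2 higher and 2 lower.

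Of 22 cytokine receptors, 13 fell and 4 rose. The falls held Csf1r, Flt3, Il7r, Kit and Epor, each named with its lineage here. Il6st, the shared signal chain of the interleukin 6 family, fell by 1.75, from 60.0, 63.3 and 59.7 CPM to 18.7, 18.3 and 17.2 CPM. The rises were Il1rl1, Il18r1, Il5ra and Cxcr4. Il5ra is the interleukin 5 receptor of eosinophils, and Cxcr4 the receptor that holds progenitors in their niche. Csf3r, the receptor for granulocyte colony-stimulating factor, had 178, 131 and 132 CPM against 139, 141 and 164 CPM and a log2 fold change of 0.01 ± 0.11 (edgeR adjusted p 0.964). With the score as a covariate 9 fell and none rose.

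Membrane genes of red cells and platelets were lower than in the flox control, and these lists moved together with hepatocyte RNA in the control libraries. Of 24 tested red-cell membrane and hemoglobin genes, 17 fell and none rose, with a median of -1.30. Aqp1 (ENSMUSG00000004655, chromosome 6, 55336432 to 55348555, plus strand), the water channel of the red cell, had 30.7, 60.4 and 59.2 CPM in the flox control, 51.0, 44.4 and 39.7 CPM in the heterozygous deletion and 7.47, 5.28 and 4.72 CPM in the homozygous deletion. It fell by 3.09 ± 0.26 on the log2 scale (edgeR adjusted p 2.13e-05), and by 1.67 with the score as a covariate (edgeR adjusted p 0.00149), where it was the 1 member of the list still called and the list median was 0.305. Ermap, an erythroid membrane protein, had 76.3, 230 and 231 CPM against 36.3, 39.9 and 44.8 CPM. Its log2 fold change was -2.15 ± 0.34 (edgeR adjusted p 0.000725) and -0.40 with the score as a covariate (edgeR adjusted p 0.701). The hemoglobin gene Hbb-bt, with 137, 208 and 190 CPM against 115, 157 and 104 CPM, overlapped between groups (-0.51 ± 0.40, edgeR adjusted p 0.347), and it was called lower without heterozygous replicate 3. Over the whole list the summed level was 1575, 2692 and 2632 CPM in the flox control, 2342, 1347 and 1362 CPM in the heterozygous deletion and 1259, 1210 and 1203 CPM in the homozygous deletion, so the libraries with less hepatocyte RNA had less red-cell RNA in both control groups. Of the 24, 8 were called lower against the heterozygous deletion, 4 with flox control replicate 3 as the only control, and 10 without flox control replicate 4 or 5 or homozygous replicate 2 or 3.

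Among erythroid transcription factors fewer members were called, and the list median changed sign with the score as a covariate. Gata1, the main erythroid factor, had 72.2, 138 and 137 CPM in the flox control and 104, 106 and 94.9 CPM in the homozygous deletion, with flox control replicate 3 below all homozygous libraries. Its log2 fold change was -0.18 ± 0.19 (edgeR adjusted p 0.479), and -0.42 with a call without that library. Ldb1, the bridge of the Gata1 complex, fell from 289, 336 and 348 CPM to 226, 197 and 193 CPM (-0.66 ± 0.081, edgeR adjusted p 0.000168). Bcl11a, a repressor of fetal globin genes, fell from 211, 255 and 261 CPM to 174, 150 and 152 CPM (-0.61 ± 0.092, edgeR adjusted p 0.000505). Both were lower in each homozygous library than in each library of the other groups. Of the 9 factors 3 fell and 1 rose, with a median of -0.22, and 6 fell without flox control replicate 3. With the covariate none of the 9 was called lower and 2 were called higher, with a median of 0.26. The rise was E2f2, a cell-cycle factor, at 0.45 ± 0.15 (edgeR adjusted p 0.0315), a call lost without flox control replicate 4 or 5 (0.42 and 0.43) or homozygous replicate 3 or 4 (0.46 and 0.31). Epor, the erythropoietin receptor, had 21.5, 56.8 and 61.0 CPM against 24.2, 23.2 and 20.7 CPM. Its call (-1.03 ± 0.30, edgeR adjusted p 0.0186) was lost without flox control replicate 4 or 5 (-0.86 and -0.78) or homozygous replicate 3 or 4 (-1.03 and -0.97), and with flox control replicate 3 as the only control it was at 0.08. Of 19 heme synthesis and iron genes 7 fell and 1 rose, 11 fell without flox control replicate 3, and 4 fell against the heterozygous deletion. Their median was -0.33, and with the score as a covariate it was 0.35, with none called lower and 2 called higher. Alas2, the first enzyme of erythroid heme synthesis, had 27.9, 38.9 and 35.7 CPM against 13, 13.4 and 12.3 CPM, while it had 12.4 and 15.5 CPM in heterozygous replicates 4 and 5.

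Megakaryocyte and platelet genes were lower in 14 of 18 members and higher in 1. Itga2b, the integrin of the megakaryocyte lineage, had 67.7, 98.1 and 94.5 CPM in the flox control and 51.1, 46.5 and 35.4 CPM in the homozygous deletion (log2 fold change -0.97 ± 0.16, edgeR adjusted p 0.000773). Vwf, von Willebrand factor of platelets and endothelium, had 13.5, 31.7 and 29.7 CPM against 3.57, 2.47 and 5.44 CPM (-2.73 ± 0.34, edgeR adjusted p 0.000184). Both were lower in each homozygous library than in each flox control library. Pf4, platelet factor 4, followed hepatocyte RNA over the flox control and heterozygous libraries, but not among the homozygous ones. It had 8.91, 24.4 and 24.0 CPM in the flox control, 12.1, 4.24 and 4.06 CPM in the heterozygous deletion and 6.66, 4.21 and 6.69 CPM in the homozygous deletion. Its call (-1.71 ± 0.47, edgeR adjusted p 0.0145) was lost without homozygous replicate 3 (-1.50), and against the heterozygous deletion it was at -0.22 (edgeR adjusted p 0.733). Of the 18 genes, 5 were hepatocyte-linked, that is, followed the score over the 6 flox control and heterozygous libraries with a Pearson r of at least 0.9 and a slope of at least 0.5. Against the heterozygous deletion 9 were called lower, and 1 with the score as a covariate. Cd9, a tetraspanin, was the member that rose, by 0.57.

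**Figure D3:**
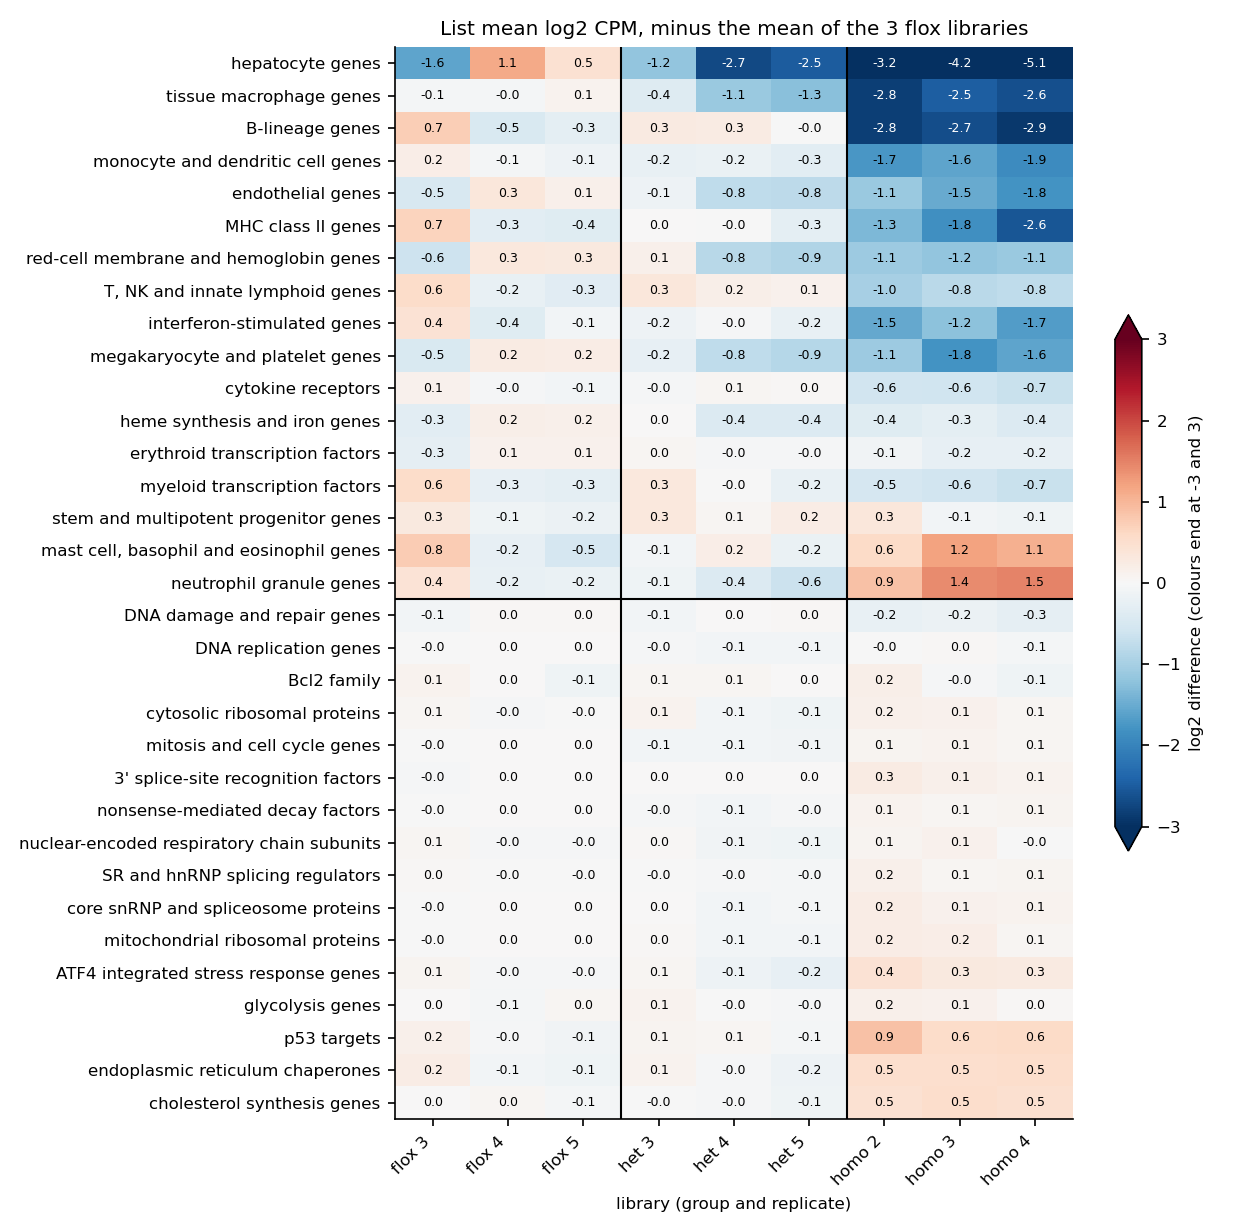
Mean log2 CPM of each list in each of the 9 libraries, minus the mean of the 3 flox control libraries, with cell-type lists above the line and cell-process lists below it. Red is higher and blue lower. Hepatocyte, red-cell and megakaryocyte lists vary among the flox control and heterozygous libraries, and B-lineage genes vary among the flox control ones. These lists and the monocyte list are lower in the 3 homozygous libraries than in every other library. For red-cell genes the nearest values are -0.895 in heterozygous replicate 5 and -1.087 in homozygous replicate 2.

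RNA of cells outside the blood is kept apart here. Of 21 hepatocyte genes 20 fell, 19 of them hepatocyte-linked. Alb, albumin, had 43.3, 319 and 203 CPM in the flox control, 53.6, 21.7 and 21.2 CPM in the heterozygous deletion and 10.5, 4.83 and 2.18 CPM in the homozygous deletion, and the fetuin gene Ahsg was at 0 in homozygous replicate 4. Hnf4a, a hepatocyte transcription factor, did not follow the others, at 10.4, 14.0 and 11.1 CPM against 9.56, 7.36 and 5.41 CPM (log2 fold change -0.66 ± 0.25, edgeR adjusted p 0.0527). It was called lower without flox control replicate 3, heterozygous replicate 3 or homozygous replicate 2. Of all tested genes, 220 were hepatocyte-linked, of which 179 were called lower and 1 higher. With the hepatocyte list and those genes left out, 5075 of 12456 genes were called. Among 16 endothelial genes 12 fell and 1 rose. Cdh5, the endothelial cadherin, had 6.29, 9.50 and 11.4 CPM against 1.58, 0.78 and 0.39 CPM, a log2 fold change of -3.27 that was -3.87 without homozygous replicate 2. Stab2, a scavenger receptor of liver sinusoids, had 2.64, 12.2 and 9.35 CPM against 0.67, 0.58 and 0.60 CPM. Cdh5 was at 7.83, 2.91 and 2.41 CPM in the heterozygous deletion, again highest in the library of that group with the most hepatocyte RNA. With the score as a covariate 2 endothelial genes were called lower. The imprinted growth regulator H19, which is hepatocyte-linked, fell by 2.86. Imprinted growth genes are not a list of cells outside the blood, and 3 of the 11 tested were hepatocyte-linked. Of the 11 imprinted growth genes, 6 fell. Against the heterozygous deletion 2 were called lower, and with the covariate 1 was called lower and 1 higher, with the list median at 0.66 in place of -0.89.

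Stellate cell and fibroblast genes did not fall as a group. Of 13 tested, 2 rose and 4 fell, and the falls were 2 without homozygous replicate 3. The list median was -0.32, against the heterozygous deletion it was 0.59, and with the covariate it was 0.14, with 1 called higher and 1 lower. The collagen genes Col1a1 (-0.05 ± 0.76, edgeR adjusted p 0.97) and Col3a1 (-0.15 ± 0.69, edgeR adjusted p 0.891) varied within the groups. Pdgfrb, a platelet-derived growth factor receptor, had 47.8, 46.4 and 43.3 CPM in the flox control, 44.9, 56.2 and 54.0 CPM in the heterozygous deletion and 19, 19.7 and 18.8 CPM in the homozygous deletion. It fell by 1.26 ± 0.087 (edgeR adjusted p 6.17e-06) with even values inside each group. Colec11, a soluble collectin, had 0.03, 0.30 and 0.24 CPM against 3.88, 1.98 and 2.39 CPM, a log2 fold change of 3.90 ± 0.57 (edgeR adjusted p 0.000462).

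Of 20 factors that act beside U2AF1 at the 3′ splice site, 7 rose and 1 fell, with a median of 0.096. The share called was 40%, against 41% of all genes called and 18.5% called higher. With the score as a covariate 4 of the 20 were called higher and none lower. U2af2 (ENSMUSG00000030435, chromosome 7, 5062143 to 5079938, plus strand), the large subunit of the same heterodimer, had 447, 474 and 458 CPM in the flox control, 631, 599 and 599 CPM in the heterozygous deletion and 766, 737 and 671 CPM in the homozygous deletion. The Vav1-Cre library without a floxed allele had 459 CPM. The 3 groups did not overlap, and the homozygous deletion was at 0.66 ± 0.061 against the flox control (edgeR adjusted p 3.29e-05) and 0.25 against the heterozygous deletion (edgeR adjusted p 0.00717). Sf1, the branch point protein, had 723, 724 and 743 CPM in the flox control, 866, 831 and 832 CPM in the heterozygous deletion and 1126, 1002 and 992 CPM in the homozygous deletion. Rbm39, an RNA-binding relative of U2AF2, had 295, 277 and 275 CPM, then 333, 347 and 355 CPM, and 473, 494 and 435 CPM in the same order. Both showed the order of U2af2, with log2 fold changes of 0.51 ± 0.060 and 0.73 ± 0.061 (edgeR adjusted p 0.000136 and 2.03e-05). Zrsr2, a relative of U2AF1 that acts on minor introns, was at 0.36 ± 0.081 (edgeR adjusted p 0.00527), and Sf3b1, the branch site protein of the U2 snRNP, was also at 0.36 (edgeR adjusted p 0.00174). Zrsr2 overlapped between the heterozygous libraries, at 39.4, 41.4 and 39.4 CPM, and the homozygous ones, at 46.7, 38.4 and 43.3 CPM. Ddx46, a helicase of the U2 snRNP, was called lower at -0.25 ± 0.066, lost its call without flox control replicate 4 or homozygous replicate 3 (-0.21 and -0.22), and was at 0.02 against the heterozygous deletion.

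Other splicing lists had small medians too. They were 0.12 for SR and hnRNP regulators and 0.11 for nonsense-mediated decay factors, against 0.096 for the 3′ splice-site factors. Of 38 core snRNP and spliceosome proteins 17 rose and none fell, with a median of 0.17, and 4 rose with flox control replicate 3 as the only control and 5 with the score as a covariate. Dhx38, a helicase of the catalytic steps, had 211, 205 and 208 CPM against 296, 279 and 275 CPM (log2 fold change 0.45 ± 0.049, edgeR adjusted p 9.2e-05). The core proteins were at 0.17 ± 0.10 for Prpf8 (edgeR adjusted p 0.197) and 0.03 ± 0.087 for Snrnp200 (edgeR adjusted p 0.837). Of 30 SR and hnRNP regulators 11 rose and 4 fell, and 2 were called higher and 1 lower with the covariate. Ptbp1, the polypyrimidine tract binding protein, rose by 0.42 ± 0.061 (edgeR adjusted p 0.0004), and Rbm10 and Hnrnpd fell by 0.44 and 0.41. Nonsense-mediated decay factors were near the background, with 4 of 17 higher and 3 lower, or 3 higher and 1 lower without flox control replicate 4 or homozygous replicate 2. With the covariate 2 were called higher and none lower. Smg8 rose by 0.54 ± 0.075 (edgeR adjusted p 0.000302) and Smg6, the endonuclease, fell by 0.32 ± 0.058 (edgeR adjusted p 0.00162).

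Targets of p53, the factor that halts or kills damaged cells, rose in 17 of 32 members and fell in 4. Among arrest and feedback targets, Ccng1 (cyclin G1) had 73.6, 82.1 and 78.1 CPM in the flox control and 116, 112 and 102 CPM in the homozygous deletion, and Mdm2, which degrades p53, had 53.3, 55.3 and 54.9 CPM against 74.2, 67.8 and 75.4 CPM. Their log2 fold changes were 0.50 ± 0.064 and 0.41 ± 0.070 (edgeR adjusted p 0.000208 and 0.00107), and neither gene overlapped between groups. Cdkn1a, which blocks cyclin-dependent kinases, had 32.2, 14.3 and 14.4 CPM against 69.6, 45.3 and 45.5 CPM. Among death targets, Bbc3 (PUMA) had 9.88, 6.01 and 6.63 CPM against 24.5, 15.4 and 13.1 CPM, and Bax had 67.0, 66.2 and 68.9 CPM against 97.0, 96.9 and 85.2 CPM. Bbc3 rose by 1.23 ± 0.24 (edgeR adjusted p 0.0024) and Bax by 0.47 ± 0.065 (edgeR adjusted p 0.000328). Eda2r, a death receptor relative, had 0.27, 0.32 and 0.13 CPM against 5.67, 1.65 and 1.58 CPM. Homozygous replicate 2 was the highest homozygous library for Cdkn1a, Bbc3 and Eda2r, and without it Eda2r was at 2.77 in place of 3.64. Fas was at 0.45 ± 0.43 (edgeR adjusted p 0.434). The 4 that fell were Ephx1, Dcxr, Sesn1 and Pidd1. With the score as a covariate 8 were called higher and 2 lower.

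Other death genes moved both ways and were called about as often as all genes. The share called was 37.5% in the Bcl2 family and 45.5% among caspases and death receptors, against 41% of all genes. Of 16 Bcl2 family genes 3 rose (Bbc3, Bax and Bid) and 3 fell, and with the score as a covariate 1 was called higher and 2 lower. Bcl2l11 (BIM), which kills cells deprived of cytokines, fell from 19.9, 20.7 and 20.8 CPM to 10.9, 12 and 14.8 CPM (log2 fold change -0.71 ± 0.12, edgeR adjusted p 0.000859). The protective genes Mcl1 (-0.01 ± 0.057, edgeR adjusted p 0.938) and Bcl2l1 (0.16 ± 0.089, edgeR adjusted p 0.181) did not pass. Casp1, the inflammasome caspase, fell from 13.6, 9.53 and 9.57 CPM to 4.06, 4.11 and 5.17 CPM (-1.30 ± 0.17, edgeR adjusted p 0.000268). In the list of 22 caspases and death receptors 5 rose and 5 fell, and the rises were 2 without flox control replicate 4 or 5 or homozygous replicate 4, and 3 without heterozygous replicate 5 or homozygous replicate 3. The falls were 2 without homozygous replicate 2 and 3 without any 1 flox control library or homozygous replicate 4. The score as a covariate left 1 of the 22 higher and 3 lower.

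Chaperones of the endoplasmic reticulum, which fold secreted and membrane proteins, were higher. Of 24 tested, 21 rose and none fell, with a median of 0.54, and 22 rose against the heterozygous deletion. Hsp90b1 (ENSMUSG00000020048, chromosome 10, 86690209 to 86705509, minus strand), the Hsp90 of this compartment, had 1349, 1126 and 1069 CPM in the flox control and 1975, 1964 and 2020 CPM in the homozygous deletion (log2 fold change 0.75 ± 0.086, edgeR adjusted p 0.000115). Hspa5 (BiP), the main Hsp70 there, had 1540, 1190 and 1126 CPM against 1984, 1963 and 1754 CPM (0.56 ± 0.14, edgeR adjusted p 0.00805). Ero1l, an oxidase that forms disulfide bonds, had 194, 148 and 145 CPM against 353, 372 and 459 CPM (1.28 ± 0.12, edgeR adjusted p 3.76e-05). For each of the 3 the highest flox control library was replicate 3, and the groups did not overlap. With flox control replicate 3 as the only control 10 of the 24 were called higher, and 3 with the score as a covariate, with list medians of 0.33 and 0.40.

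The promoters of this list are shown for the endoplasmic reticulum stress element, CCAAT, any 9 bases and CCACG on either strand, the published binding sequence of ATF6 with NF-Y. Of the 20 members with a promoter in the RefSeq table, 9 (45%) held a match in the 250 bases before the start, against 35 (0.13%) of all 27025 genes with one. The list was chosen as chaperones of this compartment, so this excess describes the list and is no result about the deletion. The 9 were Calr, Canx, Creld2, Derl3, Dnajc3, Hsp90b1, Hspa5, Pdia6 and Syvn1, of which Derl3 and Pdia6 were not called. Of the 17 called members with a promoter, 7 held a match, so a match was not particular to the members that rose. Hsp90b1 held 2 matches, 1 in each orientation, and Hspa5 held 1, at positions -65 to -47 from the start. Both are shown with the matches in capitals, 5′ to 3′ on the strand of the gene. The window of Hsp90b1 is chr10:86705445-86705694 on the minus strand, and that of Hspa5 is chr2:34771840-34772089 on the plus strand.
Hsp90b1: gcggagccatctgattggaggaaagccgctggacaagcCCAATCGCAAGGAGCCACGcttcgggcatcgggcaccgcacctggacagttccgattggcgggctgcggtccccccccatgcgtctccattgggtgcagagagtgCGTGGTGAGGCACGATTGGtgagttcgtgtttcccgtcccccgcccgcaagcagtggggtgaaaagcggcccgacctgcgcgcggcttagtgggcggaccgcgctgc
Hspa5: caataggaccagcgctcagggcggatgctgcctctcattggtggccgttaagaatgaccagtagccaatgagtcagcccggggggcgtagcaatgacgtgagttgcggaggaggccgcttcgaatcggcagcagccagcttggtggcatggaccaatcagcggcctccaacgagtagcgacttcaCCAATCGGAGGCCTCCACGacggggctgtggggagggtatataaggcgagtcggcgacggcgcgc
Members with a match had a median log2 fold change of 0.56, and members without one 0.44.

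Targets of ATF4, the factor of the integrated stress response, rose in 13 of 28 members and fell in 2, and 12 rose and none fell with the score as a covariate. Slc7a11, the cystine transporter, had 5.88, 5.03 and 5.11 CPM in the flox control and 17.5, 18.8 and 27.0 CPM in the homozygous deletion (log2 fold change 1.98 ± 0.18, edgeR adjusted p 3.03e-05). Chac1, which degrades glutathione, had 1.47, 1.38 and 1.47 CPM against 3.70, 4.14 and 6.27 CPM (1.70 ± 0.24, edgeR adjusted p 0.000318). Trib3, a pseudokinase of this response, had 1.13, 1.03 and 1.13 CPM against 2.68, 2.95 and 2.48 CPM. All 3 genes were more than 2-fold higher in each homozygous library than in each flox control library. Atf4 itself rose by 0.42 ± 0.089 (edgeR adjusted p 0.00379). Ddit3 (CHOP), a death factor of the same response, had 12.7, 8.47 and 9.83 CPM against 10.9, 10.6 and 10.2 CPM (0.03 ± 0.19, edgeR adjusted p 0.915). Asns, asparagine synthetase, overlapped between groups, with 78.6, 136 and 141 CPM against 158, 163 and 134 CPM (0.36 ± 0.19, edgeR adjusted p 0.151). It was called higher against the heterozygous deletion (0.62, edgeR adjusted p 0.0205) and with the score as a covariate (1.44, edgeR adjusted p 0.00286). Pck2 fell by 0.69, and the fall of Nupr1 (-0.84 ± 0.28, edgeR adjusted p 0.0316) lost its call when any of 6 single libraries was left out (all but heterozygous replicates 3 and 5 and homozygous replicate 2).

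Cholesterol synthesis genes were higher. Of 16 tested, 13 rose and none fell, with a median of 0.57, and the count stayed between 13 and 14 when single libraries were left out. Mvd (ENSMUSG00000006517, chromosome 8, 122433601 to 122443422, minus strand), which makes isopentenyl diphosphate, had 22.2, 20.6 and 19.1 CPM in the flox control, 21.1, 20.1 and 18.8 CPM in the heterozygous deletion and 38.8, 39.7 and 36.9 CPM in the homozygous deletion. Mvd rose by 0.90 ± 0.080 on the log2 scale against the flox control (edgeR adjusted p 2.74e-05). Its values were even inside each group, and the homozygous libraries lay above the other 6. Lss, which closes the sterol ring, rose by 0.80 ± 0.082 (edgeR adjusted p 5.8e-05). Of the 16, 8 were called higher with the score as a covariate, and 11 with flox control replicate 3 as the only control. None of the 10 members with a promoter in the RefSeq table held the sterol element TCACNCCAC in the 250 bases before the start, where 1.22% of all genes did.

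Glycolysis genes rose in 11 of 19 members and fell in 3, and with the score as a covariate 4 were called higher and none lower. Pkm, pyruvate kinase, had 1821, 1507 and 1544 CPM in the flox control and 2349, 2343 and 2295 CPM in the homozygous deletion (log2 fold change 0.52 ± 0.076, edgeR adjusted p 0.000422). Slc16a3, the lactate exporter, had 102, 116 and 121 CPM against 203, 219 and 231 CPM (0.95 ± 0.081, edgeR adjusted p 2.2e-05). The falls were Pklr, the red-cell form of pyruvate kinase, Pfkm and Ldhb. Pklr had 45.5, 141 and 157 CPM against 34.6, 36.8 and 37.6 CPM, so flox control replicate 3 lay near the homozygous libraries. Pdk1, which keeps pyruvate from the mitochondria and is induced by hypoxia, fell, while 6 of the 13 tested hypoxia-inducible genes rose, among them Mxi1 (0.97 ± 0.091, edgeR adjusted p 3.44e-05) and Bhlhe40 (1.67 ± 0.21, edgeR adjusted p 0.000191). It had 145, 153 and 155 CPM in the flox control, 104.6, 107 and 115 CPM in the heterozygous deletion and 62.4, 66.8 and 64.5 CPM in the homozygous deletion, with no overlap between any 2 groups and 145 CPM in the Vav1-Cre library. With the score as a covariate 1 of the 13 was called higher and 1 lower.

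Genes of DNA replication were called in both directions, and mitosis genes were called higher more often than lower. Of 49 DNA replication genes 6 rose and 9 fell, with a median of 0, and 2 were called higher and 1 lower with the score as a covariate. Without the covariate 30.6% were called, against 41% of all genes. Rrm2, a subunit of ribonucleotide reductase, rose from 279, 294 and 298 CPM to 490, 547 and 555 CPM (log2 fold change 0.87 ± 0.064, edgeR adjusted p 8.78e-06). Pole, the leading-strand polymerase, fell from 177, 210 and 204 CPM to 119, 126 and 116 CPM (-0.71 ± 0.083, edgeR adjusted p 0.000124). Mcm2 (0.10 ± 0.063, edgeR adjusted p 0.256) and Pcna (0.05 ± 0.057, edgeR adjusted p 0.5) did not pass. Of 40 mitosis genes 15 rose and 6 fell, and against the heterozygous deletion 22 rose and 2 fell. The covariate left 6 higher and 1 lower. Without flox control replicate 3, 4 or 5 or homozygous replicate 4 the falls were 3, 2, 3 and 3. Plk1, a mitotic kinase, had 258, 264 and 272 CPM against 365, 371 and 345 CPM (0.45 ± 0.052, edgeR adjusted p 0.000119), while the proliferation marker Mki67 overlapped between groups (-0.07 ± 0.088, edgeR adjusted p 0.573). DNA damage and repair genes fell in 12 of 28 members and rose in 1. The sensor kinases Prkdc, at 71.0, 92.9 and 84.3 CPM against 49.2, 57.0 and 50.7 CPM, and Atr, at 55.9, 62.7 and 61.5 CPM against 38.7, 46.7 and 37.8 CPM, fell by 0.66 ± 0.12 and 0.55 ± 0.11 (edgeR adjusted p 0.00127 and 0.00301). Brca1 (-0.22), Fancd2 (-0.32) and Atm (-0.32) lost their calls when flox control replicate 4 or 5 was left out, with adjusted p in edgeR's test between 0.0737 and 0.0999, and when several of the homozygous libraries were. None of the 28 was called with the score as a covariate.

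Mitochondrial and ribosomal proteins were not called more often than all genes. Among mitochondrial ribosomal proteins 40.6% were called, all of them higher, against 41% of all genes called and 18.5% called higher. The share called was 28.6% for respiratory chain subunits and 6.67% for cytosolic ribosomal proteins, both below that of all genes. Of 69 mitochondrial ribosomal proteins 28 rose and none fell, with a median of 0.17, and 15 rose with the score as a covariate. Mrpl17 had 72.3, 73.2 and 73.0 CPM in the flox control and 112, 121 and 106 CPM in the homozygous deletion (log2 fold change 0.63 ± 0.068, edgeR adjusted p 8.11e-05). Of 70 nuclear-encoded respiratory chain subunits 18 rose and 2 fell. That count was 7 and 10 without flox control replicate 4 and 5, 11 without homozygous replicate 2 or 3, and 40 against the heterozygous deletion. With the covariate 3 were called higher and 1 lower. Of 45 cytosolic ribosomal proteins 3 rose and none fell. The rises were 10 without flox control replicate 3, 6 without heterozygous replicate 3, 5 without homozygous replicate 4, and 1 without flox control replicate 4 or 5 or homozygous replicate 3. None was called with the score as a covariate.

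The 12 largest rises and falls were taken from coding genes of at least 10 CPM in the higher group whose groups did not overlap and that are not hepatocyte-linked. Etv4, an ETS factor downstream of growth factor receptors, had 0.76, 0.80 and 0.92 CPM in the flox control and 11.1, 11.4 and 8.93 CPM in the homozygous deletion (log2 fold change 3.66 ± 0.19, edgeR adjusted p 9.54e-07). Pdyn, the precursor of dynorphin peptides, had 1.16, 0.80 and 0.94 CPM against 8.24, 15.0 and 10.3 CPM (3.52 ± 0.26, edgeR adjusted p 8.78e-06). Gabbr1, a GABA receptor subunit, had 1.60, 1.13 and 0.95 CPM against 7.68, 9.68 and 15.2 CPM (3.13 ± 0.28, edgeR adjusted p 2.94e-05). These 3 genes were near 1 CPM in the flox control and at least 4-fold higher in each homozygous library, and each was called with the score as a covariate, at 4.02, 2.90 and 1.97. Cyp11a1, the steroid side-chain cleaving enzyme, had 5.20, 1.91 and 1.05 CPM against 13.5, 31.5 and 39.8 CPM and moved from 3.36 to 4.30 without flox control replicate 3. Mcpt8, Spp1, Ngp, St14, Stfa2l1, Lcn2 and Gca were also among the 12 largest rises. The 12 largest falls were Cd5l, Pax5, Ly86, Sdc3, Nrp1, Pld4, Id3, C1qc, Csf1r, C1qb, Aqp1 and Cx3cr1. Nrp1, a semaphorin receptor of plasmacytoid dendritic cells and endothelium, had 24.0, 22.1 and 21 CPM against 1.91, 1.96 and 1.91 CPM, and Pld4, a nuclease of plasmacytoid dendritic cells, had 75.4, 56.1 and 52.7 CPM against 5.12, 6.98 and 6.18 CPM. Both were called with the score as a covariate, at -3.95 and -3.94.

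**Figure D4:**
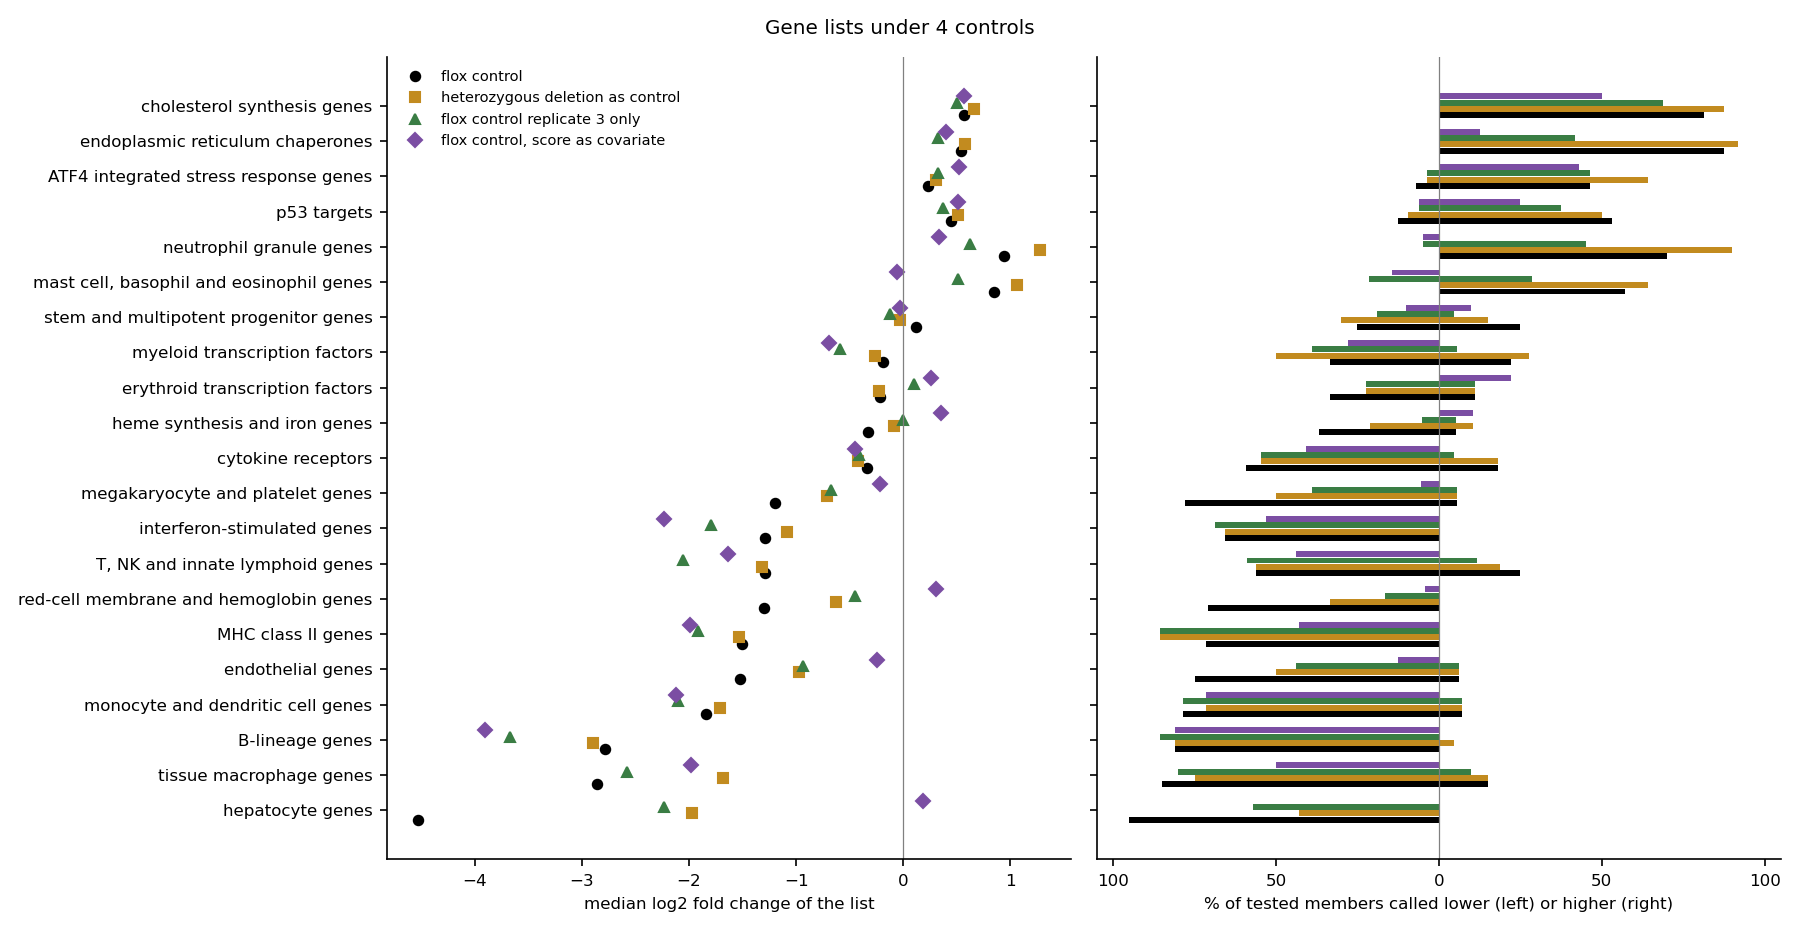
Median log2 fold change (left) and share of tested members called lower or higher (right) for 21 lists, with the homozygous deletion set against the flox control, the heterozygous deletion, flox control replicate 3 alone, and the flox control with the hepatocyte score as a covariate. B-lineage, monocyte and interferon lists are low under the 4 settings, and red-cell and megakaryocyte medians move toward 0 or past it under the last 3.

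Over classes of exon number, the share of protein-coding genes called lower was larger with more exons. Exons were counted in the longest protein-coding transcript of each gene in GENCODE M21, a choice made after seeing the data. With 1 exon, 17.1% of the genes were called higher and 11.8% lower (n = 170), with a median log2 fold change of 0.098. For 2 to 5 exons the shares were 24.2% and 18.9% (n = 2581), for 6 to 10 exons 23.9% and 23.2% (n = 3324), and for 11 to 20 exons 19.7% and 28.3% (n = 3270). With over 20 exons, 12.2% were called higher and 35.8% lower (n = 1552), with a median of -0.167. Levels differed between the classes too, with medians in the flox control of 1.68, 18.4, 32.3, 44.9 and 62.1 CPM in the same order.

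Within genes of 20 to 80 CPM in the flox control, the share called lower was 21.7% with 1 exon, from only 23 genes. In that window it was smallest for 2 to 5 exons, and 21.1%, 30.6% and 40.7% in the classes above. The shares called higher in the window were 30.4%, 33%, 29%, 17.6% and 9.97% from the fewest to the most exons. Against the heterozygous deletion the share called lower was 12.4% with 1 exon and 34.9% with over 20. The rule first chosen counted the exons of the longest transcript of any type, which for some genes is not a coding transcript. By that rule 504 genes had 1 exon, but 335 of them had more in their coding transcript. The shares called lower by that rule were 16.5%, 19.4%, 24.1%, 29% and 35.2% from the fewest to the most exons. Genes are not independent replicates, so these shares describe the libraries and have no p. Gene length was not separated from exon number.

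**Figure D5:**
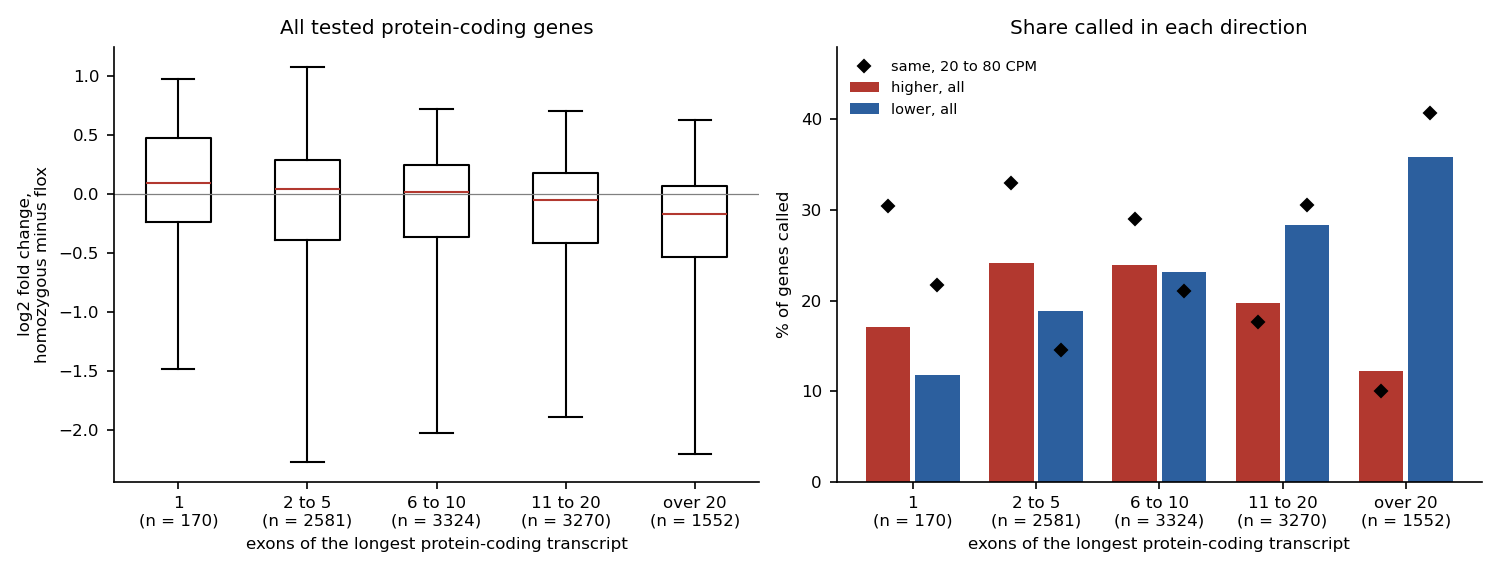
Tested protein-coding genes by number of exons in the longest protein-coding transcript. Left, log2 fold change of the homozygous deletion against the flox control (box, quartiles; red line, median; whiskers, 5th to 95th percentile). Right, percent of genes called higher (red) and lower (blue), with diamonds for genes of 20 to 80 CPM in the flox control. The share called lower is 11.8% with 1 exon and 35.8% with over 20.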

How the data were processed

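Gene expression was measured by total RNA sequencing after ribosomal RNA depletion. The authors deposited a table of raw counts per gene. Reads were aligned with HISAT2 2.1.0 per the series' design text. The counting tool, its use of strand and any filter are not given in the sources used here, so genes that overlap others are uncertain. Libraries were grouped by the labels' genotype, stage and batch. From the counts, edgeR 4.0.16 (R 4.3.3) fitted the 9 flox control, heterozygous and homozygous libraries of batch A together, with TMM factors, the filterByExpr filter and the quasi-likelihood test, with Benjamini-Hochberg adjustment over 12678 genes. CPM are TMM-scaled, except in the Vav1-Cre library, where counts were scaled to its total over the tested genes. Log2 CPM use a prior count of 2, and the standard error is the log2 fold change over the square root of F. A group was at the floor where each library had at most 3 counts. Gene positions and exon numbers (longest protein-coding transcript, chosen after seeing the data) are from GENCODE M21 (GRCm38), and promoters from RefSeq (GRCm38.p6).

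The members and 43 gene lists were chosen with earlier results of these data known. Of 1328 genes in the lists, 914 were tested, and the others were not analysed here. Genes named were the 12 largest rises and falls (coding, adjusted p under 0.05, groups that did not overlap, at least 10 CPM in the higher group, not hepatocyte-linked), key genes of each list, and up to 2 of the largest rises and falls in each list. Members named to spell out a count (such as Bid, Sesn1, Pidd1, Ldhb, Il6st, Ifnar2, Cxcr4 and Il5ra) and the promoter examples were chosen after their values were seen. Alternatives were DESeq2 1.42.0, other scalings and filters, other controls, the hepatocyte score as covariate, a GC correction (GC content of the longest transcript of any type), a replicate block and leaving out each library. The scripts were tested on simulated data. Where only flox control replicate 3 was kept, that lone library is assumed to vary like the other groups. Results for some genes that the rule names are not reported here.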

Additional observations from a re-analysis of the deposited data

How the results depend on the processing

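Against 5194 genes called in the comparison with the flox control, 1406 were called with the hepatocyte score as a covariate and 1533 when a log2 fold change of at least 1 was also required. With flox control replicate 3 as the only control, an alternative chosen after seeing the data, 2718 were called. Requiring that fold change left 1439 of 5358 in the comparison with the heterozygous deletion. DESeq2 called 5597, RLE factors 5271, the GC correction 5263, all genes without the low-count filter 5125, genes averaging 50 or more counts 4730 and the 2 groups alone 4502. Leaving out single libraries gave 3994 to 5589 calls against the flox control and 4048 to 5979 against the heterozygous deletion.

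Correlations of same-numbered libraries ran from -0.16 to 0.14, and those of differently numbered libraries from -0.17 to 0.14. With 3 libraries a group, these correlations cannot decide whether replicate numbers pair the libraries. With the replicate block 4049 and 4325 genes were called in the comparisons with the flox control and the heterozygous deletion, and 4161 and 4431 with the GC correction and the block.

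Of 229 named genes, the score covariate left 101 on the same side of the threshold. Among these, a change of sign without a call in either fit was not counted. Another 107 lost their call, 5 gained a call, and 16 with a call in either fit changed sign. The last were Apoa1 at 0.20, Casp4 at -0.19, Cdkn1c at 0.62, Csf3r at -0.53, Ddx46 at 0.029, Elane at -0.11, Epor at 0.71, Gfi1b at 1.04, Gp6 at 0.89, Meg3 at 1.10, Mirg at 0.64, Pf4 at 0.69, Pklr at 0.54, Prg2 at -0.14, Reln at 1.73 and Spi1 at -0.081 on the log2 scale. Against the heterozygous deletion Ddx46 was at 0.024. With flox control replicate 3 as the only control Epor was at 0.075 and Gata1 at 0.49. The cause was not tested. With 3 libraries a group, small changes in genes of few counts are the least certain.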
